A study of Rattus norvegicus with 2 samples.

Results

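Catalase, the superoxide dismutases, glutathione peroxidases 1 to 4, peroxiredoxin 6 and the metallothioneins were followed in the liver of rats fed a choline-deficient diet. The 10 genes were Cat, Sod1, Sod2, Gpx1, Gpx2, Gpx3, Gpx4, Prdx6, Mt1a and Mt2A. Every probe for a gene whose name equalled one of these was taken, which gave 13 of the 41012 probes on the array. Wistar rats (spelled Wister in the labels) of 7 weeks received the choline-deficient diet or a control diet for 10 days. No allele or further agent is named for either group. Total liver RNA of the 2 diets was labelled with Cy3 and Cy5 and hybridised together on each of 2 two-colour Agilent arrays with swapped dyes. Cy5 marked the choline-deficient sample on array 1, and Cy3 marked it on array 2. The sample titles mention 4 rats on the choline-deficient diet, without stating whether RNA was pooled or whether the arrays held different rats. All SDs between arrays therefore rest on these 2 arrays alone, and their spread may be technical. The p-values of the test between the diets use the same 2 arrays, with a spread largely pooled over probes.

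Superoxide is turned into hydrogen peroxide by Sod1 in the cytosol, which carries copper and zinc, and by Sod2 in mitochondria, which carries manganese. Hydrogen peroxide is then removed by catalase, which liver peroxisomes hold in large amounts, by glutathione peroxidases with glutathione as the reductant, and by peroxiredoxins. Metallothioneins are small cysteine-rich proteins that bind zinc and copper, can take up oxidants through their thiols and are strongly inducible in hepatocytes.

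None of the 11 member probes that could be tested was called different between the diets. Catalase was the lowest of them (1.24-fold lower on choline-deficient diet) and Mt1a the highest (1.21-fold higher), both with the same sign on each array and neither past the threshold. The threshold was a Benjamini-Hochberg adjusted p of 0.05 over all 22369 probes tested by limma, which called 7.18% of them (3.54% higher and 3.63% lower). At an unadjusted p under 0.05 limma found 2 of the 11 member probes, Cat and Mt1a, against 16.6% of all tested probes. The 95% intervals of the 11 probes held no fold change beyond 1.43 in either direction. These intervals hold for the normalization used here and take a spread largely pooled over probes. They therefore set no firm limit on the effect of the diet, and the spread between rats may not be in them. By the authors' deposited p-value, which Feature Extraction computes within 1 array, none of the 11 was under 0.01 on either array, against 6.51% of the tested probes on array 1 and 5.03% on array 2.

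The probes are 60-base oligonucleotides, and 3 are printed here as the array files give them. The Cat probe is that of the lowest ratio, the Gpx1 probe has a partner elsewhere on the same transcript, and the Mt2A probe shows the composition of a metallothionein message. Capitals in the Mt2A probe mark TGC triplets, which code for cysteine, in the reading frame that holds most of them: 7 of 20 triplets.
Cat (A_44_P362954): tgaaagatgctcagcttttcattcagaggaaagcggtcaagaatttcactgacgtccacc
Gpx1 (A_44_P123315): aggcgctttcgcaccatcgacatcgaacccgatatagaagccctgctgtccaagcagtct
Mt2A (A_42_P567267): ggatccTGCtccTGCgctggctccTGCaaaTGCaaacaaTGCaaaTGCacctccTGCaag

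In the coordinates of the array files (rat build rn4), the Cat probe spans chromosome 3 from 88683063 to 88685007, which is longer than its 60 bases. The Gpx1 probes lie at 1046293 to 1046352 and 1046407 to 1046466 of the sequence chr16_random. The Mt1a and Mt2A probes lie on chromosome 19, from 11261706 to 11261765 and from 11268171 to 11268230, and share no run of bases longer than 5. Exon and intron annotation on rn4 was not used here. In the rat build GRCr8, Gpx1 lies on chromosome 8. Each member probe had 1 spot per array.

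Levels below are background-corrected, dye-normalized log2 intensities, and ratios are log2 of choline-deficient over control. Of the 43379 gene spots, 53.5% to 54.2% were well above background in Cy3 and 62.9% to 63.2% in Cy5, and none was saturated. All 12 hepatocyte markers checked were well above background in both diets on both arrays. Of the markers of other cell types, 5 of 8 intestinal, 5 of 8 kidney and 3 of 6 adipose genes on the array were below the detection filter, while the adipose gene Cfd fell (-0.49) and the intestinal genes Fabp2 (0.61) and Cdh17 (0.51) rose. A second Cdh17 probe was at 0.13 and did not pass. Probes with 10 spots gave the error within an array: the median SD of their log2 ratio was 0.0571 on array 1 and 0.0435 on array 2 over 59 probes with a mean log2 intensity above 10. Between the arrays, the SD of the 11 tested member probes ran from 0.02 to 0.28 and was below 0.0571 for 1 Gpx1 probe only.

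**Figure D1:**
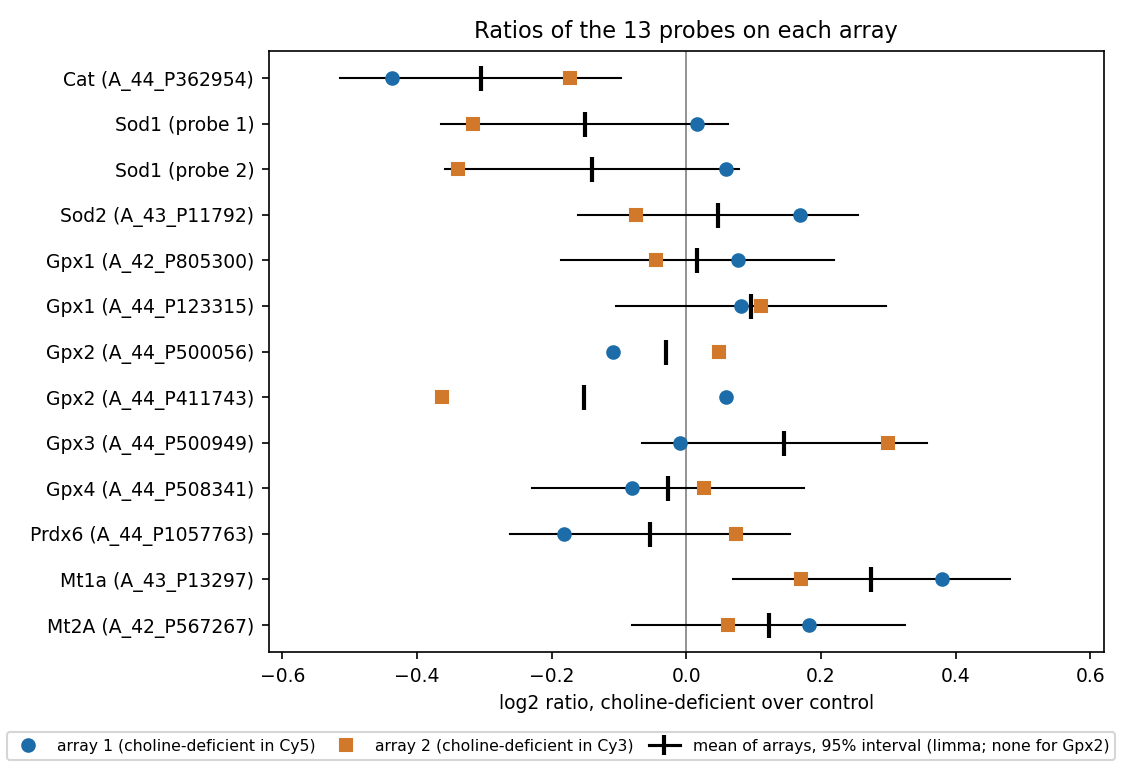
Log2 ratio of choline-deficient over control for each of the 13 probes on array 1 (circles) and array 2 (squares), with the mean of the 2 arrays (vertical tick) and its 95% interval from limma (line; none for Gpx2, which was not tested). Cat lies below 0 and Mt1a above 0 on both arrays, and the arrays fall on opposite sides of 0 for 7 of the 11 tested probes.

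After the normalization used here, the signs varied between the arrays for most members. Of the 11 tested probes, 3 were higher on both arrays (Mt1a, Mt2A and 1 Gpx1 probe), 1 was lower on both (Cat) and 7 had opposite signs. The same sign on both arrays was found for 56.1% of all tested probes. The median of the mean log2 ratios was 0.02 over the member probes and -0.00013 over all tested probes. With median centring these medians were 0.16 and 0.0764, and 10 of the 11 member means were above 0. In the authors' deposited log ratios, turned in the same way, fewer member probes had opposite signs. There both Sod1 probes were below 0 on both arrays, and Gpx3 was above 0 on both.

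Catalase had the lowest mean ratio of the members. Its normalized level was 13.37 in control and 12.93 in choline-deficient liver on array 1, and 13.26 and 13.08 on array 2. Both control values lay above both choline-deficient values. The log2 ratio was -0.44 on array 1 and -0.17 on array 2, with a mean of -0.30 ± 0.19 (SD, n = 2 arrays) and a 95% interval from -0.51 to -0.10. In limma's test the unadjusted p was 0.00602 and the adjusted p 0.0725. The call turned on the processing, since the adjusted p was 0.0481 when 1 probe per gene was tested and 0.0421 without background correction, and it ranged from 0.0421 to 1.00 over 9 alternatives. With median centring in place of the intensity-dependent dye correction (loess), the mean ratio was -0.13.

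Red blood cells carry much catalase, and RNA of blood cells is part of a liver sample. All 6 erythroid markers tested had mean ratios below 0 (median -0.14, from -0.44 to -0.02), and Hbb-b1, a beta-globin gene, fell (-0.44 ± 0.13, limma adjusted p = 0.00521; -0.28 with median centring). Their summed normalized intensity was 20563 in choline-deficient against 29291 in control liver on array 1 and 24142 against 30590 on array 2, most of it from Hbb-b1. Without Hbb-b1 the sum was 1150 against 1254 on array 1 and 1151 against 1318 on array 2, and Gata1 was below the detection filter. Epb42 had opposite signs on the arrays (-0.25 on array 1 and 0.21 on array 2). Epb42 and Slc4a1 were also dim, with levels from 7.05 to 7.35, so the sum without Hbb-b1 rests partly on dim probes. Prdx2, a peroxiredoxin abundant in red blood cells, was at 0.04 ± 0.02. The part of blood cells in the Cat ratio was not tested. In such bulk RNA, fewer cells of a type and less RNA per cell cannot be told apart.

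Both Sod1 probes gave the same pattern, near 0 on array 1 and lower in choline-deficient liver on array 2. The first probe read 16.15 in control and 16.16 in choline-deficient liver on array 1, and 16.25 and 15.93 on array 2. The second probe read 15.60 and 15.66 on array 1, and 15.76 and 15.42 on array 2. The choline-deficient value was thus low on array 2 only, and the groups overlapped for both probes. With the deposited log ratio, the first probe was at -0.08 on array 1 and -0.18 on array 2, and the second at -0.02 and -0.23.

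The mean ratios of the Sod1 probes were -0.15 ± 0.24 and -0.14 ± 0.28 (SD, n = 2 arrays; limma adjusted p = 0.574 and 0.637), and both were above 0 with median centring (0.01 and 0.02). The probes differed from each other by 0.04 on array 1 and 0.02 on array 2, while the arrays differed by 0.37 in the mean of both probes. As Cy5 over Cy3 after loess, both ratios were above 0 on both arrays, at 0.02 and 0.06 on array 1 and 0.32 and 0.34 on array 2. The deposited Cy5 over Cy3 ratios of both probes were below 0 on array 1. Dye and array cannot be told apart for a gene on these 2 arrays, because each array has 1 dye orientation.

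The mitochondrial enzyme Sod2 read 9.82 in control and 9.98 in choline-deficient liver on array 1, and 9.96 and 9.88 on array 2. The values of the diets overlapped, and the mean ratio was 0.05 ± 0.17 (95% interval from -0.16 to 0.25, limma adjusted p = 0.931), or 0.22 with median centring. Its probe aligns on rn4 only in part, over 34 bases of chromosome 1 from 41862972 to 41863005.

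**Figure D2:**
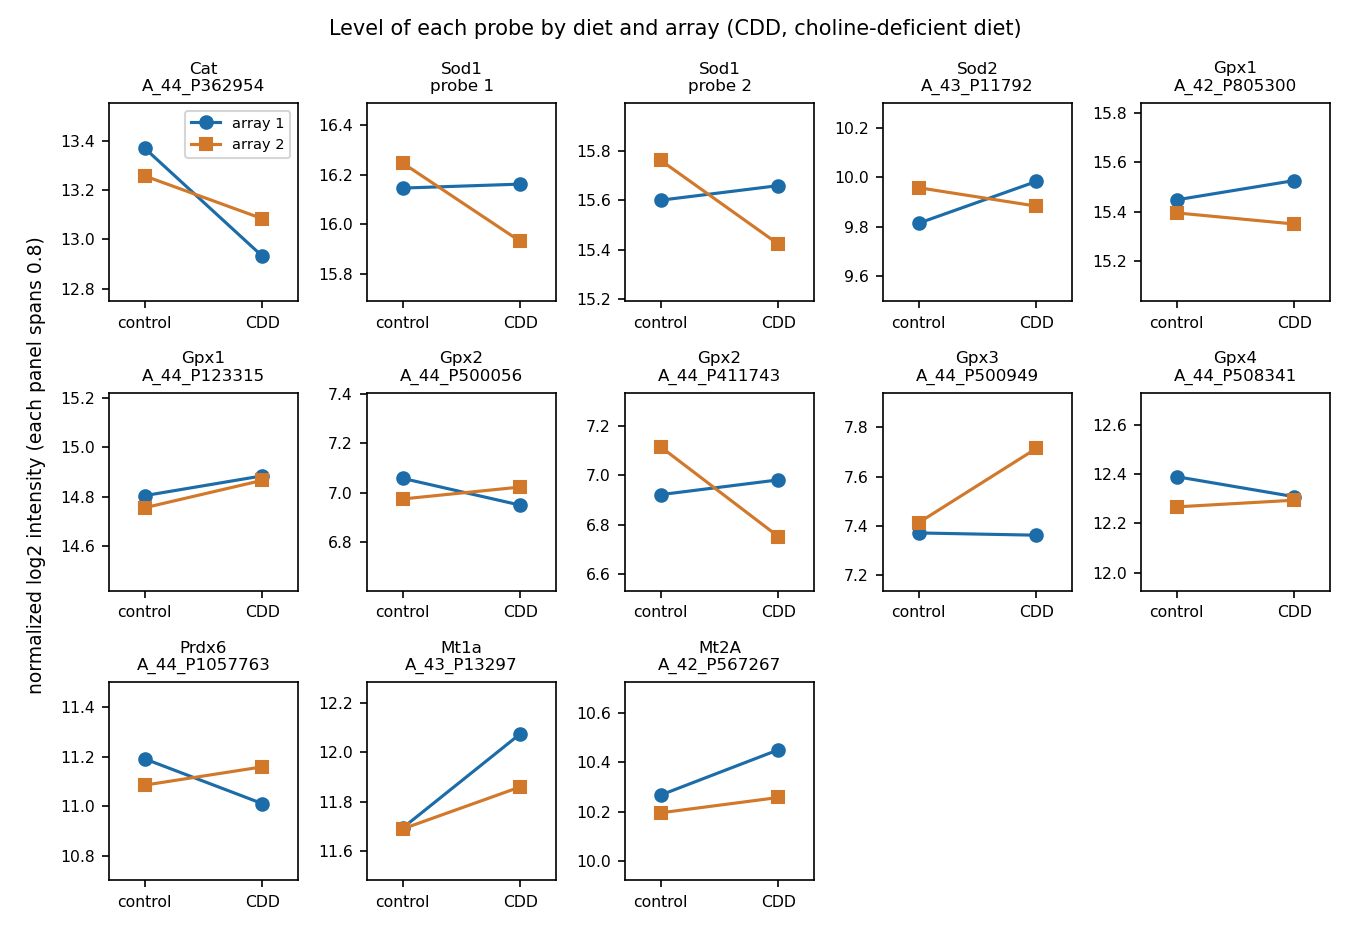
Normalized log2 intensity of each probe in control and choline-deficient liver (CDD), with 1 line per array and the same span of 0.8 in every panel. The lines of Cat both descend, those of Mt1a and Mt2A both ascend, and those of the Sod1 probes cross.

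The glutathione peroxidases among the members are selenoproteins in which selenocysteine forms the active site. Gpx1, the main cytosolic form of liver, had 2 bright probes that do not overlap. The probe A_44_P123315 read 14.80 in control and 14.88 in choline-deficient liver on array 1, and 14.76 and 14.87 on array 2. Both choline-deficient values were above both control values for this probe.

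The ratio of this Gpx1 probe was 0.10 ± 0.02, with a 95% interval from -0.10 to 0.30 (limma adjusted p = 0.779). The other Gpx1 probe, A_42_P805300, read 15.45 and 15.53 on array 1, and 15.40 and 15.35 on array 2. Its values overlapped between the diets and its mean ratio was 0.02 ± 0.09 (limma adjusted p = 0.984). With median centring, the ratios of the Gpx1 probes were 0.27 and 0.19 in the same order. The probes differed by 0.003 on array 1 and by 0.16 on array 2.

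Gpx4 reduces lipid peroxides within membranes. Its level was 12.39 in control and 12.31 in choline-deficient liver on array 1, and 12.27 and 12.29 on array 2, so that the groups overlapped. The mean ratio was -0.03 ± 0.08 (95% interval from -0.23 to 0.17, limma adjusted p = 0.967), and it was 0.16 with median centring.

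Gpx3 encodes the secreted plasma form, of which kidney is the main source. Its spot was dim, at the 26.0 percentile of brightness among the tested probes. It read 7.37 in control and 7.36 in choline-deficient liver on array 1, and 7.41 and 7.71 on array 2. The choline-deficient value was high on array 2 only, and the mean ratio was 0.15 ± 0.22 (95% interval from -0.07 to 0.36, limma adjusted p = 0.591), or 0.25 with the deposited log ratio.

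Gpx2, the form of gut epithelium, did not pass the detection filter with either of its probes and was not tested. The probe A_44_P500056 was well above background in only 1 of its 4 readings, in choline-deficient liver, and its ratio was -0.11 on array 1 and 0.05 on array 2. The probe A_44_P411743 was so in 1 reading as well, in control liver, and its ratio was 0.06 on array 1 and -0.36 on array 2. For this dim probe the authors' deposited table gave a log2 ratio of 0.37 on array 1 and of -1.67 on array 2 (deposited p = 0.00944 on array 2). Scanned intensities of both probes lay between 102 and 139, against a median background of 46 to 47 per array and dye. No level of Gpx2 was thus measured on both arrays in either diet.

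Prdx6, a peroxiredoxin that reduces phospholipid hydroperoxides, read 11.19 in control and 11.01 in choline-deficient liver on array 1, and 11.09 and 11.16 on array 2. The order of the diets was opposite on the 2 arrays. The mean ratio was -0.05 ± 0.18 (95% interval from -0.26 to 0.15, limma adjusted p = 0.918) and 0.13 with median centring.

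Both metallothionein probes were higher in choline-deficient liver on both arrays without passing the test. Mt1a read 11.70 in control and 12.08 in choline-deficient liver on array 1, and 11.69 and 11.86 on array 2. Both choline-deficient values lay above both control values. The log2 ratio was 0.38 on array 1 and 0.17 on array 2, with a mean of 0.27 ± 0.15 (SD, n = 2 arrays), a 95% interval from 0.07 to 0.48 and an adjusted p of 0.112 (unadjusted p = 0.0110). The mean was 0.47 with median centring, and the adjusted p ranged from 0.0611 to 1.00 over 9 alternatives.

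Mt2A read 10.27 and 10.45 on array 1, and 10.20 and 10.26 on array 2. Its choline-deficient value on array 2 lay below its control value on array 1, so the groups overlapped. The mean ratio was 0.12 ± 0.08 (95% interval from -0.08 to 0.32, limma adjusted p = 0.672), and it was 0.31 with median centring.

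**Figure D3:**
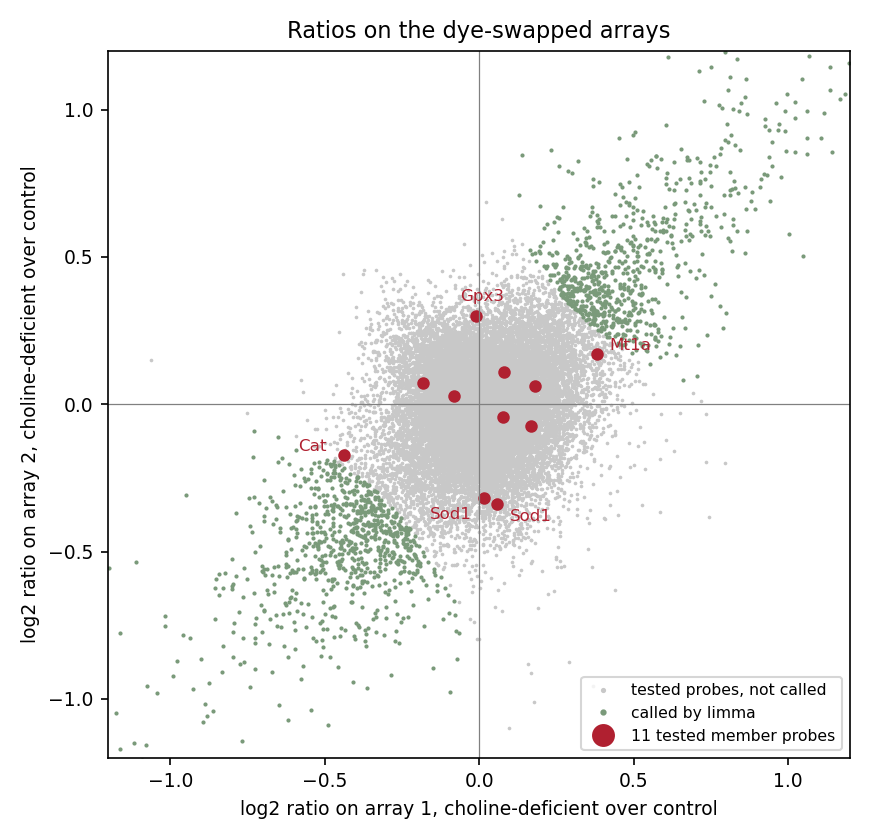
Log2 ratio of choline-deficient over control on array 1 (x axis) against array 2 (y axis) for 22369 tested probes, with those called by limma in green and the 11 member probes in red; 59 probes lie outside the axes. The member probes lie in the grey cloud of uncalled probes, with Cat at its lower left edge and Mt1a at its right edge.

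Bright spots were common among the members. Of the 11 tested probes, 6 lay in the brightest 10% of all tested probes (both Sod1, both Gpx1, Cat and Gpx4), with the Sod1 probes at percentiles 99.5 and 99.1. This is a rank of spots, not of transcript abundance. The difference between the arrays, halved, holds a dye effect, which cancels in the mean, and the error of single arrays, which does not fully cancel. Its median absolute size was 0.0790 over all probes of the brightest 10% and 0.0966 over the 6 member probes there. Among single members it was 0.02 for the printed Gpx1 probe and 0.20 for the second Sod1 probe. Among those brightest probes, limma called 15.0% of the probes.

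The metallothionein promoters are shown because Mt1a (Mt1 in the current annotation) and Mt2A are neighbours, 4958 bases apart on chromosome 19 of GRCr8, and were both higher on each array. The zinc-sensing factor MTF1 acts on metallothionein genes through metal response elements. The sequences are the 250 bases before each start, from RefSeq on GRCr8, both on the minus strand (Mt1a at chr19:10832976-10833225 and Mt2A at chr19:10838709-10838958). Capitals mark each match to TGCACNC or TGCGCNC, the core of that element, on either strand.
Mt1a: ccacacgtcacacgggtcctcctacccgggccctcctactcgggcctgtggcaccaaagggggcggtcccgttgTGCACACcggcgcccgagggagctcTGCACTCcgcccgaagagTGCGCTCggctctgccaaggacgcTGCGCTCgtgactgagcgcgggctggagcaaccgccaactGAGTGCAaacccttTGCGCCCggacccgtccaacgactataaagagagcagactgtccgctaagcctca
Mt2A: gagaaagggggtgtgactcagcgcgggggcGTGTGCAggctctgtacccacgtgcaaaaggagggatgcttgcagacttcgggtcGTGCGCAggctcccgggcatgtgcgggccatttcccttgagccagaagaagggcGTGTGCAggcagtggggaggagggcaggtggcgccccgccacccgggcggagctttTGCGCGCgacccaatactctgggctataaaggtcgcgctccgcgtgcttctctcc

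The Mt1a window held 6 matches and the Mt2A window 4. Of 33465 RefSeq promoter windows of the same length, 20.6% held at least 1 match, 0.266% at least 4 and 0.0269% at least 6. The matches nearest to the start lay at the same distance in both genes, from 55 to 49 bases before it. No match was found in the windows of Cat, Sod1, Sod2, Gpx1, Gpx2, Gpx3 or Gpx4, and Prdx6 was not analysed here.

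The antioxidant response element, at which NRF2 acts, was searched as TGACNNNGC on both strands. It matched once each in the windows of Mt1a, Mt2A, Sod2 and Gpx2 and is held by 10.1% of all windows. None of its matches overlapped a metal response match in these genes. A match describes letters only and does not show binding.

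**Figure D4:**
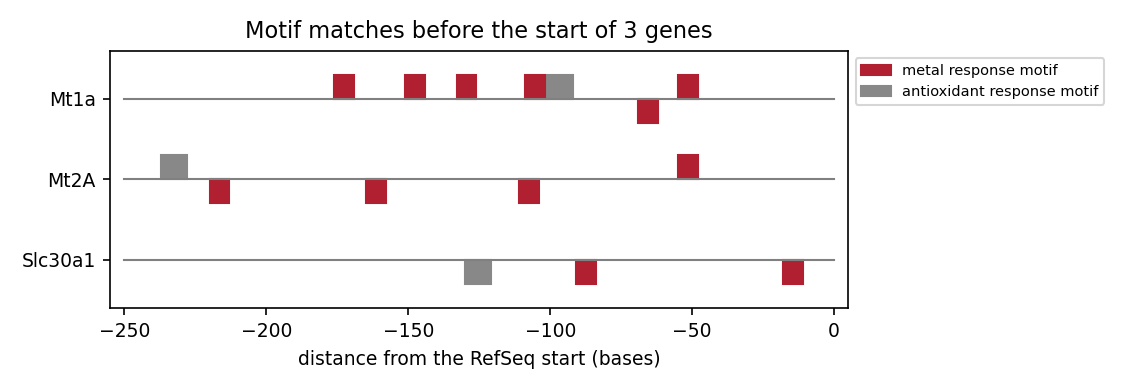
Position of motif matches in the 250 bases before the start of Mt1a, Mt2A and the zinc exporter gene Slc30a1, with boxes above the line for the gene's strand and below it for the other strand. Red boxes are metal response matches (6, 4 and 2) and grey boxes antioxidant response matches (1 in each gene).

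Slc30a1, which exports zinc from the cell and is also an MTF1 target, fell in choline-deficient liver. Its log2 ratio was -0.23 on array 1 and -0.43 on array 2, with a mean of -0.33 ± 0.14 (limma adjusted p = 0.0418). The metallothionein probes had the opposite sign on both arrays. The call for Slc30a1 was lost with a normexp offset of 16 (adjusted p = 0.0970) and without the detection filter (0.0739). MTF1 itself (Mtf1) was at 0.02 ± 0.07, and its second probe at 0.08 ± 0.21.

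Slc30a1 belonged to a list of 20 zinc and copper handling genes, of which 3 fell, none rose and 17 did not pass. For genes read by their brightest probe, limma called 3.65% of 18198 lower and 3.83% higher. The manganese exporter gene Slc30a10 fell (-0.35 ± 0.08, adjusted p = 0.0255, or 0.0683 with a normexp offset of 16), as did the copper-carrying ferroxidase gene Cp (-0.42 ± 0.03, adjusted p = 0.00727). Of the 3 further Cp probes, 2 were lower by a similar size (-0.41 and -0.45) and 1 was at -0.08. With median centring the means of Slc30a1, Slc30a10 and Cp were -0.18, -0.20 and -0.23. The median of the list was -0.04, against 0.00025 over all genes tested. Ccs, which loads copper onto Sod1, was at 0.05 ± 0.13.

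Several oxidases that produce hydrogen peroxide fell. Of 14 genes tested in that list, 4 fell, none rose and 10 did not pass, against 3.65% of all genes lower, and 12 of the 14 had a mean below 0 (median -0.22). The list also holds the mitochondrial dehydrogenases Sardh and Dmgdh, without which 4 of 12 fell and 10 of 12 had a mean below 0. Aox1, the cytosolic aldehyde oxidase, fell by 0.54 on the log2 scale (-0.70 on array 1 and -0.38 on array 2, limma adjusted p = 0.00105). The peroxisomal D-amino acid oxidase Dao fell (-0.45 ± 0.14, adjusted p = 0.00447), as did Acox2, the peroxisomal oxidase of branched fatty acids and bile acid intermediates (-0.36 ± 0.18, adjusted p = 0.0256).

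Maob, which lies on the outer mitochondrial membrane and not in peroxisomes, fell to the same size on both arrays (-0.36 each, adjusted p = 0.0215). The urate oxidase gene Uox, also peroxisomal, was at -0.01 ± 0.09. The count of lower oxidases was 2 with a normexp offset of 16, 6 with an intensity trend in the prior variance, and 0 with median centring or the deposited log ratio. Under the last 2 settings limma called no probe on the array, so every call named here is lost, with 26 and 2583 probes at an unadjusted p under 0.05. With median centring the means of Dao, Acox2 and Maob were -0.29, -0.18 and -0.18. Whether the oxidases differ from the removal enzymes as groups was not tested. The 12 hepatocyte markers had a median of -0.17, with 10 means below 0, 2 genes that rose and 2 that fell, and their part in the oxidase values was not tested.

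None of the 15 peroxisome import genes passed in either direction, against 3.65% of all genes lower and 3.83% higher, and their median was -0.06. With an intensity trend in the prior variance, 1 of the 15 was called lower. Pex19, a receptor for peroxisomal membrane proteins, had the lowest mean among the 15 (-0.29 ± 0.15, limma adjusted p = 0.0944). Its other tested probes had means from -0.29 to -0.23 and did not pass. Pex5, the receptor through which most enzymes enter the peroxisome, was at -0.03 ± 0.19.

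Against 3.83% of all genes higher and 3.65% lower, 1 of 10 tested further members of the same families rose and none fell. This was Gpx8, a glutathione peroxidase of the endoplasmic reticulum that has no selenocysteine (0.36 on array 1 and 0.38 on array 2, limma adjusted p = 0.0173). Prdx5, a peroxiredoxin of mitochondria, peroxisomes and cytosol, was lower on both arrays without passing (-0.35 and -0.20, adjusted p = 0.105). Prdx1, Prdx3 and Srxn1 had means from -0.06 to -0.03, and the extracellular Sod3 was at -0.13 ± 0.06.

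The thioredoxin and glutathione recycling genes restore the reductants of the peroxidases. Their list is not reported whole, so no share of calls is given. Of the 16 genes reported, 13 had a mean above 0, with a median of 0.03 over the 16 against 0.00025 over all genes tested. Several of these 13 had opposite signs on the arrays, such as Txn1 (-0.08 on array 1 and 0.41 on array 2) and Gsr (0.15 and -0.10). The glutathione reductase Gsr was at 0.03 ± 0.18 and the thioredoxin reductase Txnrd1 at 0.26 ± 0.02 (limma adjusted p = 0.126), with its other probes at 0.18 and -0.05. The glutamate-cysteine ligase subunits Gclc and Gclm, which start glutathione synthesis, were at 0.03 ± 0.17 and -0.22 ± 0.27.

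Against 3.65% of all genes lower and 3.83% higher, 1 of 15 selenoprotein synthesis and transport genes fell and none rose. This was Sepsecs, which completes selenocysteine on its transfer RNA (-0.32 on array 1 and -0.53 on array 2, limma adjusted p = 0.00759). Sephs2, which makes the selenium donor, was lower on both arrays without passing (-0.23 ± 0.03, adjusted p = 0.198), as was the selenium carrier gene Sepp1 (-0.20 ± 0.07, adjusted p = 0.301). The tested probes of the selenoproteins Gpx1, Gpx3 and Gpx4 had means from -0.03 to 0.15. With the deposited log ratio, Sepsecs was at -0.67.

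Among 8 tested subunits of the superoxide-producing NADPH oxidases, 1 rose and 1 fell, and 7 had a mean above 0. Over all genes, limma called 3.83% higher and 3.65% lower. Cyba, the membrane subunit shared by several of these oxidases, rose (0.53 on array 1 and 0.20 on array 2, limma adjusted p = 0.0293), a call that was lost with a normexp offset of 16 (adjusted p = 0.0878). Its mean was 0.55 with median centring. The phagocyte subunits Cybb, Ncf1 and Ncf4 were higher on both arrays without passing, with means from 0.24 to 0.27. The count of subunits called higher was 3 with an intensity trend in the prior variance and 0 with a normexp offset of 16. A second Cybb probe had opposite signs on the arrays (-0.06 and 0.36), and Rac2, a small GTPase of the same complex, was at 0.18 ± 0.08. Nox4, a catalytic subunit also present outside phagocytes, fell (-0.46 ± 0.18, limma adjusted p = 0.00370), with a mean of -0.82 by the deposited log ratio.

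Among 13 Kupffer cell and macrophage markers tested, Marco (0.91 ± 0.13, limma adjusted p = 6.38e-07) and Lyz2 (0.69 ± 0.24, 6.68e-05) rose, Cd14 fell (-0.41 ± 0.01, 0.00895) and 10 did not pass, with a median of -0.06. A second Cd14 probe was at -0.24 and did not pass. The share of all genes called was 3.83% higher and 3.65% lower. The summed normalized intensity of the markers was 47649 in choline-deficient against 55457 in control liver on array 1, and 50951 against 51694 on array 2. Most of it came from Clec4f (-0.29 ± 0.23, limma adjusted p = 0.0951) and C1qb (-0.29 on array 1 and 0.07 on array 2). None of 3 neutrophil markers tested passed, with a median of 0.09. S100a8, a dim probe, had the highest mean (0.20 on array 1 and 0.44 on array 2, limma adjusted p = 0.0541). With 1 probe per gene, 1 neutrophil marker was called higher, as it was where a probe had to be well above background in both diets. The part of these cells in the NADPH oxidase values was not tested.

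**Figure D5:**
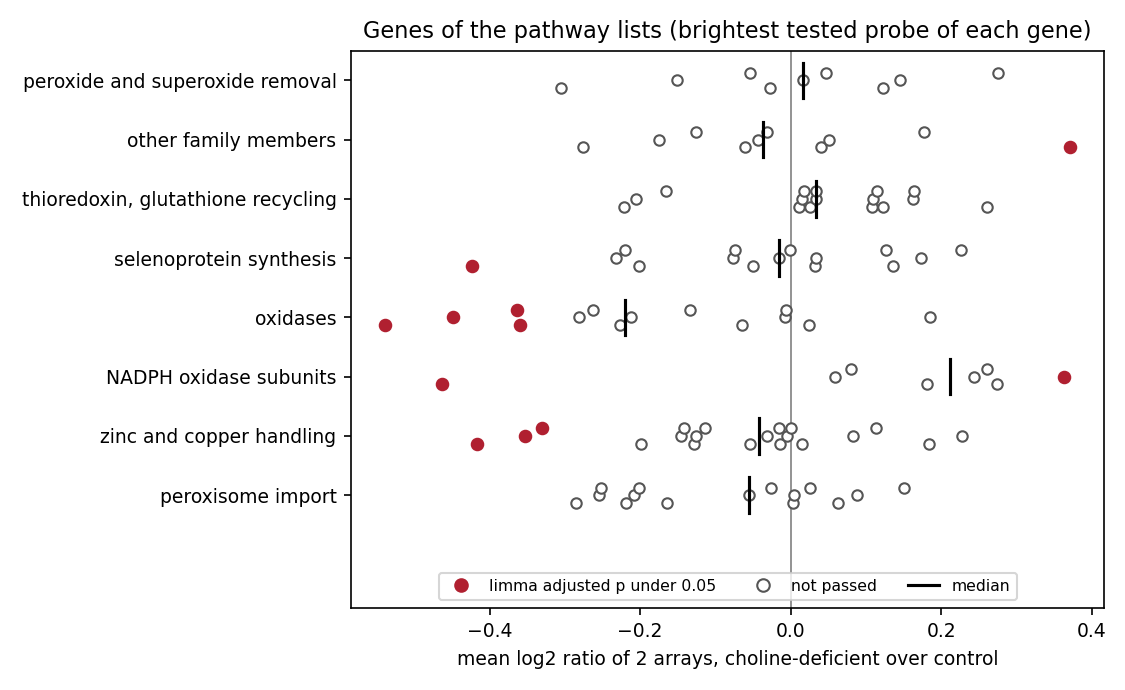
Mean log2 ratio over the 2 arrays for each reported gene of 8 lists, read by its brightest tested probe, with filled points for a limma adjusted p under 0.05, open points for the rest and a bar at the list's median. The 9 tested peroxide and superoxide removal genes are all open, and the oxidases hold 4 filled points, all below 0.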

How the data were processed

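Both arrays were read from the deposited scanner files, which hold the mean spot and local background intensity of each dye. Per the file headers, extraction was by Agilent Feature Extraction 9.5.3.1, which the submitters' processing notes give as 9.5. Coordinates of probes are those of rn4. The same files give a deposited log10 ratio of the dyes, Cy5 over Cy3, after background subtraction and dye correction by the authors, and the authors' deposited p-value of that ratio within 1 array. In R 4.3.3 with limma 3.58.1, intensities were background-corrected by normexp with an offset of 50, which draws the ratios of dim spots towards 0. Log2 ratios were then normalized by loess with control spots at weight 0, and turned to choline-deficient over control by the dyes in the labels. Spots flagged as outliers (174 and 151) were left out. Levels were scaled between arrays by A-quantiles.

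A probe was tested where at least 50% of its spots exceeded background clearly on array 1 and array 2 alike, for the same diet. limma's lmFit and eBayes tested the 2 ratios of each probe against 0, two-sided, with 1 residual and 22.4 prior degrees of freedom, so the spread is largely pooled over probes. The number of arrays limits the precision. Pathway genes were read by their brightest tested probe. The text names all members, and from each further pathway list the called genes (up to 4), with others, and the marker genes it names, chosen after their values were seen. The members and lists were chosen with earlier results of these data known. The procedure was also run on simulated data, with the 2 arrays drawn independently, so that a probe kept no dye effect across them. Recovery was required only for changes larger than those seen in the members. All 10 member genes matched RefSeq (GRCr8) by unversioned accession, and 9 had a promoter entry. Some members of the lists are not reported here and were left out of the list counts and the plot of the lists.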

Additional observations from a re-analysis of the deposited data

How the results depend on the processing

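The 11 member probes were refitted under 9 alternatives, and 7 of the probes kept the sign of their mean in all of them that tested the probe. With median centring, the means of the Sod1 probes (0.012 and 0.024), Gpx4 (0.16) and Prdx6 (0.13) were above 0 and not below it, the mean of Cat was -0.13, and 0 probes were called higher and 0 lower over the array. With the deposited log ratio, 0 were called higher and 0 lower. A normexp offset of 16 left 536 probes lower, against 813. Cat was the 1 member probe called lower without background correction (adjusted p = 0.0421) and with 1 probe per gene (0.0481), and no member was called higher under any alternative. The cause of these shifts was not tested. Without either array, the mean becomes the value of the array that stays, with no test: from -0.44 to -0.17 for Cat and from 0.17 to 0.38 for Mt1a. No count of calls could be made from 1 array. No paired analysis was possible because each array already holds both diets and the 2 arrays form 1 group of ratios. Dim spots limit Gpx2, which did not pass the detection filter.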
